A study of Mus musculus with 18 samples.

Results

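The 10 genes described here code for proteins that slow or stop cell division or answer cell stress. They are the polo-like kinases Plk2 and Plk3, the growth arrest and DNA damage genes Gadd45a, Gadd45b and Gadd45g, the antiproliferative genes Btg1 and Btg2, the p53 regulator Mdm2, the cyclin-dependent kinase inhibitor Cdkn1a and the sestrin Sesn2. Each was found by its gene name in a table of 32675 genes of mouse kidney, where each of the 10 names had 1 row. The set was chosen by its earlier measured differences between these same mice, in PBS versus Ctrl and in FLX versus PBS. Values and calls of members in those 2 comparisons are therefore a description and carry no test, and no member count in them is read as a result. FLX versus Ctrl draws on the same mice, so its p values for members are not independent of that choice either.

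Right kidneys of 18 male wild-type C57BL/6 mice, 6 weeks old when the study began, were subjected to bulk RNA sequencing of poly(A) RNA, with 6 mice in each of 3 groups. The PBS group (StressPbs) and the FLX group (StressFlx) both went through chronic social defeat stress (CSDS), in which a resident CD-1 mouse attacked each of them daily over 2 weeks. The PBS group received daily saline injections and the FLX group daily fluoxetine, a serotonin reuptake inhibitor used as an antidepressant, while the Ctrl group was handled but not defeated. Per the study's methods no undefeated group received fluoxetine, so that the FLX group differed from Ctrl in defeat, injection and drug at once, and these cannot be told apart. The PBS group likewise differed from Ctrl in both defeat and injection, which cannot be told apart either.

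The study left out 1 PBS mouse without naming it. PBS replicate 6 was taken to be that mouse, and values are given over the other 5 PBS mice and, where it matters, with it. Its summed level of 7 neutrophil genes was 65.0 FPKM (a level scaled for gene length and sequencing depth) against 6.84 to 25.5 in the other PBS mice, that of 3 injured tubule genes 63.5 against 1.66 to 6.19, and that of 4 proximal tubule genes 5266 against 18861 to 22091. Proximal tubule genes were high in every mouse, as the label kidney implies. Their sum was lower in the 5 PBS mice than in Ctrl (26467 to 38150), but it was nearly all Kap, at a median of 25188 FPKM over 18 mice and 17873 to 21183 in those 5. Of the others, Slc34a1 was at 704 to 879 in the 5 PBS mice (median of 18 mice 752), Lrp2 at 57.6 to 86.7 (67.9) and Slc5a2 at 124 to 156 (127). Total estimated counts were 72149987 to 79061296 in 14 mice and 48928823 to 52073640 in FLX replicates 3 to 6. All 10 members passed the filter on low counts, with 195 to 14139 estimated counts per mouse. In whole kidney, a lower value can come from fewer cells of a type or from less RNA per cell, and these cannot be told apart.

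Cells that are stressed or damaged can pause before they copy their DNA or divide. The tumour suppressor p53 switches on Cdkn1a, whose protein p21 blocks cyclin-dependent kinases, and also Mdm2, whose protein marks p53 for breakdown. Gadd45 proteins bind and activate a kinase upstream of p38 and interact with the replication clamp PCNA, Btg1 and Btg2 proteins recruit the CCR4-NOT complex that shortens mRNA tails, and sestrins hold back the growth kinase mTORC1. Plk2 and Plk3, Gadd45b, Gadd45g and Btg2 are also known as early response genes whose mRNA appears quickly after a stimulus, and the cAMP response element is one promoter sequence through which such stimuli act.

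Promoter windows from RefSeq on GRCm38.p6, from 250 bases before to 50 after the start, were found for all 10 genes, with 2 starts for Cdkn1a. The 5 sequences shown are the 250 bases before the start of Plk2 and Btg2, which hold a full cAMP response element, of Plk3, which holds its short form, and of Gadd45g and the upstream start of Cdkn1a, which were higher in the PBS group. They are printed 5′ to 3′ on the gene's own strand, and capitals mark matches to the full cAMP response element (TGACGTCA), its short form (TGACG), the p53 site and the TATA box (TATAAA), each searched on both strands.
Plk2, chr13:110394794-110395043, plus strand: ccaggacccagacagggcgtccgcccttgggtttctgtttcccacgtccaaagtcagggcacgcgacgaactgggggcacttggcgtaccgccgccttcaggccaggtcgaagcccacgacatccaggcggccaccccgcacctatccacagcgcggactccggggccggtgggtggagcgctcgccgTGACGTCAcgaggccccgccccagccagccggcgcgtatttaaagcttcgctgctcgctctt
Plk3, chr4:117133964-117134213, minus strand: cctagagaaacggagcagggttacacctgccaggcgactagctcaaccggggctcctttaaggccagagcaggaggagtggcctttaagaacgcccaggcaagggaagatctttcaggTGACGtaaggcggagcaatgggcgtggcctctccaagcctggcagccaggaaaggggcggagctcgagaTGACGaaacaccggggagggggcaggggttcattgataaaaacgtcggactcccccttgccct
Gadd45g, chr13:51846425-51846674, plus strand: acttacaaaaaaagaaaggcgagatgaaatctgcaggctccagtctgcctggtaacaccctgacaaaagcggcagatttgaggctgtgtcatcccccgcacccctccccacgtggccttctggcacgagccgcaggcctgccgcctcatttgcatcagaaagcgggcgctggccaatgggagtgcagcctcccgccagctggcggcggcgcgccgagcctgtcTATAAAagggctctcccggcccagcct
Btg2, chr1:134079156-134079405, minus strand: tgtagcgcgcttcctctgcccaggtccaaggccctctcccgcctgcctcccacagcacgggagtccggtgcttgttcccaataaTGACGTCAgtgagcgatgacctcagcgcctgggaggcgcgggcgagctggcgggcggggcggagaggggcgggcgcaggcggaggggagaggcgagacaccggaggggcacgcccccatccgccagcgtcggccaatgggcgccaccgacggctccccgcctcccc
Cdkn1a, chr17:29090729-29090978, plus strand: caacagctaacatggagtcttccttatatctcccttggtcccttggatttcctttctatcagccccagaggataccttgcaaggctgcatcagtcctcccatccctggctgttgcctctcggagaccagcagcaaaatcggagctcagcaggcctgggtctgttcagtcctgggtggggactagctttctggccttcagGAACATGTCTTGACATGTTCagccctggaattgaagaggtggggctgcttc

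The full cAMP response element lay 62 to 55 bases before the start of Plk2 and 166 to 159 bases before that of Btg2, and 1.79% of all 32851 windows held one. Short forms, which each full element also contains, were found for 5 of the 10 genes (Plk2, Plk3, Btg1, Btg2 and Mdm2) and in 20.8% of all windows. Plk3 had short forms 132 to 128 and 63 to 59 bases before its start. A TATA box stood before Gadd45b, Gadd45g and Btg1, against 13.6% of windows, and neither an AP-1 site (TGANTCA, in 7.81% of windows) nor a serum response CArG box (1.63%) was in the window of any member. No member held an exact p53 site of 2 adjoining decamers, which 3 of the 32851 windows did. With the core letters of both decamers kept and up to 2 other letters off, an allowance set after the Cdkn1a sequence was seen, a match lay 51 to 32 bases before the upstream start of Cdkn1a and in 0.158% of windows, but not at its downstream start or in the Mdm2 window. A match is a stretch of letters and was not tested as a binding site.

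**Figure D1:**
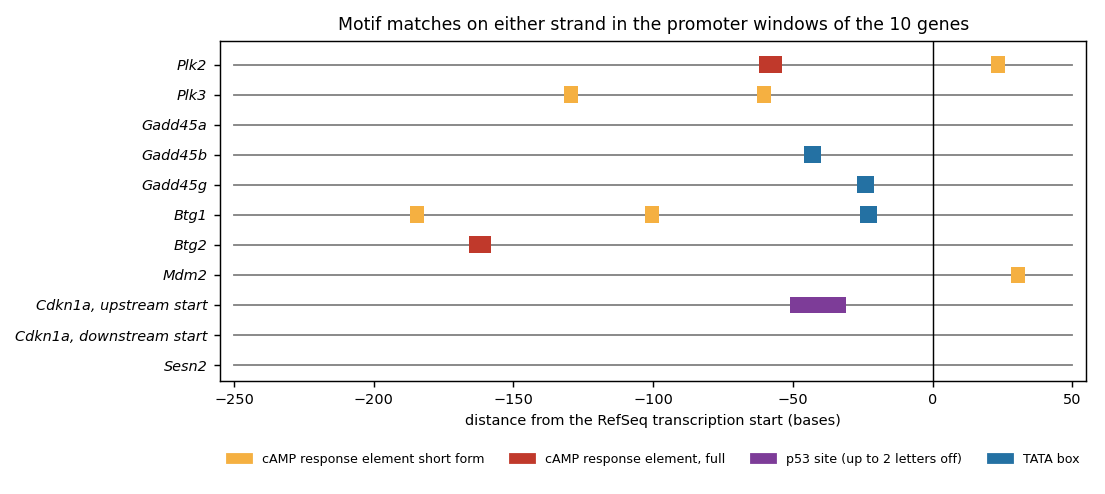
Positions of motif matches in the promoter windows of the 10 genes, in bases from the RefSeq start at 0, with 1 row per start. Red blocks for the full cAMP response element, which cover the short forms inside it, stand in the rows of Plk2 and Btg2 only, and the purple p53 block stands before the upstream start of Cdkn1a.

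In the Ctrl group, Gadd45g had the highest mean level of the members, 20.4 ± 5.24 FPKM (SD, n = 6), followed by Btg2 (15.7 ± 2.68), Sesn2 (12.5 ± 1.79), Gadd45a (11.5 ± 3.24), Btg1 (11.3 ± 1.26) and Plk3 (6.72 ± 4.54). Plk2 (3.12 ± 0.491), Gadd45b (2.93 ± 0.639), Mdm2 (2.77 ± 1.11) and Cdkn1a (2.14 ± 0.698) were the lowest. The ranges over mice of every 2 neighbours in this order overlapped.

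Plk3 and Plk2, related kinases of the stress response, differed in direction. Plk3 (ENSMUSG00000028680, chr4:117128655-117133963, minus strand, GRCm38) was at 55.3, 15.1, 20.04, 61.1 and 18.5 FPKM in PBS replicates 1 to 5, against 2.36 to 13.5 in Ctrl (median 4.53) and 4.06 to 13.7 in FLX (median 8.35). Thus all 5 PBS mice lay above every Ctrl and every FLX mouse, and 2 of them, replicates 1 and 4, were far above the rest. The log2 fold change in edgeR's quasi-likelihood model was 2.36 with a standard error (SE) of 0.48 in PBS versus Ctrl and -2.21 (0.48) in FLX versus PBS. PBS replicate 6 had only 5.14 FPKM, inside the range of both other groups, and with it the log2 fold changes were 2.14 and -1.99. Plk3 overlaps Tctex1d4 on the opposite strand, a gene listed at 0.180 FPKM or less in every mouse.

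Plk3 in the FLX group did not differ detectably from Ctrl, with 7.90 ± 3.51 FPKM (SD, n = 6) against 6.72 ± 4.54 and a log2 fold change of 0.15 (SE 0.45, edgeR adjusted p = 0.893). Its direction turned without Ctrl replicate 1 (-0.0230) or FLX replicate 2 (-0.0873), and with FLX replicates 3 to 6 alone (-0.20).

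Plk2 (ENSMUSG00000021701, chr13:110395046-110400844, plus strand) was at 2.55 to 3.72 FPKM in Ctrl (median 3.16) and at 1.62 to 2.36 in FLX (median 2.11), so that all 6 FLX mice lay below every Ctrl mouse. PBS replicates 1 to 5 had 2.13, 2.01, 3.55, 1.43 and 1.52 FPKM. Of these, 4 were below the Ctrl range and replicate 3 was inside it. In FLX versus Ctrl Plk2 fell by 0.66 on the log2 scale (SE 0.18, edgeR adjusted p = 0.0445). The exact two-sided permutation test gave an unadjusted 0.00216, the smallest p that 6 against 6 mice allow. Any gene whose 2 groups do not overlap reaches that value, and 3.4% of all genes tested did not overlap here. The edgeR call stood close to the threshold. It was lost with all 6 PBS mice in the fit (adjusted p = 0.0565) and in 13 of the 17 fits that left out 1 mouse, where the log2 fold change stayed between -0.71 and -0.59. In PBS versus Ctrl the log2 fold change was -0.55 (0.19), which became -0.79 without PBS replicate 3. Plk2 differed by -0.10 (0.18) between FLX and PBS, and its sign was reversed without that mouse (0.14).

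The 3 Gadd45 genes code for small acidic proteins of similar structure. Gadd45g (ENSMUSG00000021453, chr13:51846678-51848468, plus strand) was at 13.7 to 26.8 FPKM in Ctrl (median 20.6) and at 37.0 to 60.6 in FLX (median 42.9). PBS replicates 1 to 5 had 128, 79.9, 30.4, 82.7 and 92.6 FPKM, and replicate 6 had 39.4. All PBS and FLX mice, replicate 6 included, were therefore above every Ctrl mouse, and 4 PBS mice were above every FLX mouse. On the log2 scale Gadd45g differed by 2.04 (SE 0.26) between PBS and Ctrl and by -0.94 (0.26) between FLX and PBS.

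Against Ctrl, Gadd45g in FLX rose by 1.10 on the log2 scale (SE 0.25, edgeR adjusted p = 0.0222), in 6 of 6 FLX mice, with an unadjusted 0.00216 from the exact permutation test. The adjusted p was 0.0471 with 6 PBS mice in the fit, 0.0581 without Ctrl replicate 1 and 0.0596 without Ctrl replicate 5. It was 0.0802 with FLX replicates 3 to 6 only, 0.268 with FLX replicates 1 and 2 only and 0.0712 with a replicate block.

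Gadd45a (ENSMUSG00000036390, chr6:67035096-67037406, minus strand), itself a p53 target, was at 21.8, 14.9, 18.7, 22.2 and 17.9 FPKM in PBS replicates 1 to 5 and at 31.3 in replicate 6. In Ctrl it was at 8.44 to 10.8 in 5 mice and 17.8 in replicate 1, and in FLX at 8.17 to 10.1 in 5 mice and 20.2 in replicate 4. The PBS group overlapped Ctrl and FLX through those 2 mice only. Its log2 fold change was 0.74 (SE 0.21) in PBS versus Ctrl and -0.88 (0.21) in FLX versus PBS, and 0.87 and -1.01 with all 6 PBS mice. In PBS versus Ctrl it became 0.91 without Ctrl replicate 1, and in FLX versus PBS -1.09 without FLX replicate 4. Between FLX and Ctrl it was -0.13 (0.20, edgeR adjusted p = 0.755). A long non-coding gene on the opposite strand, E230016M11Rik, overlaps Gadd45a and was at 0.467 to 1.10 FPKM.

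Gadd45b (ENSMUSG00000015312, chr10:80930073-80932204, plus strand) was the weakest of the 3 in level. PBS replicates 1 to 5 had 5.85, 2.61, 4.58, 3.73 and 4.99 FPKM, against 1.94 to 3.40 in Ctrl (median 3.28) and 1.70 to 3.31 in FLX (median 2.50). Thus 4 of the 5 PBS mice lay above every Ctrl and FLX mouse, and replicate 2 lay among them. Fold changes on the log2 scale were 0.57 (SE 0.20) in PBS versus Ctrl, -0.90 (0.21) in FLX versus PBS and -0.33 (0.20, edgeR adjusted p = 0.362) in FLX versus Ctrl.

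**Figure D2:**
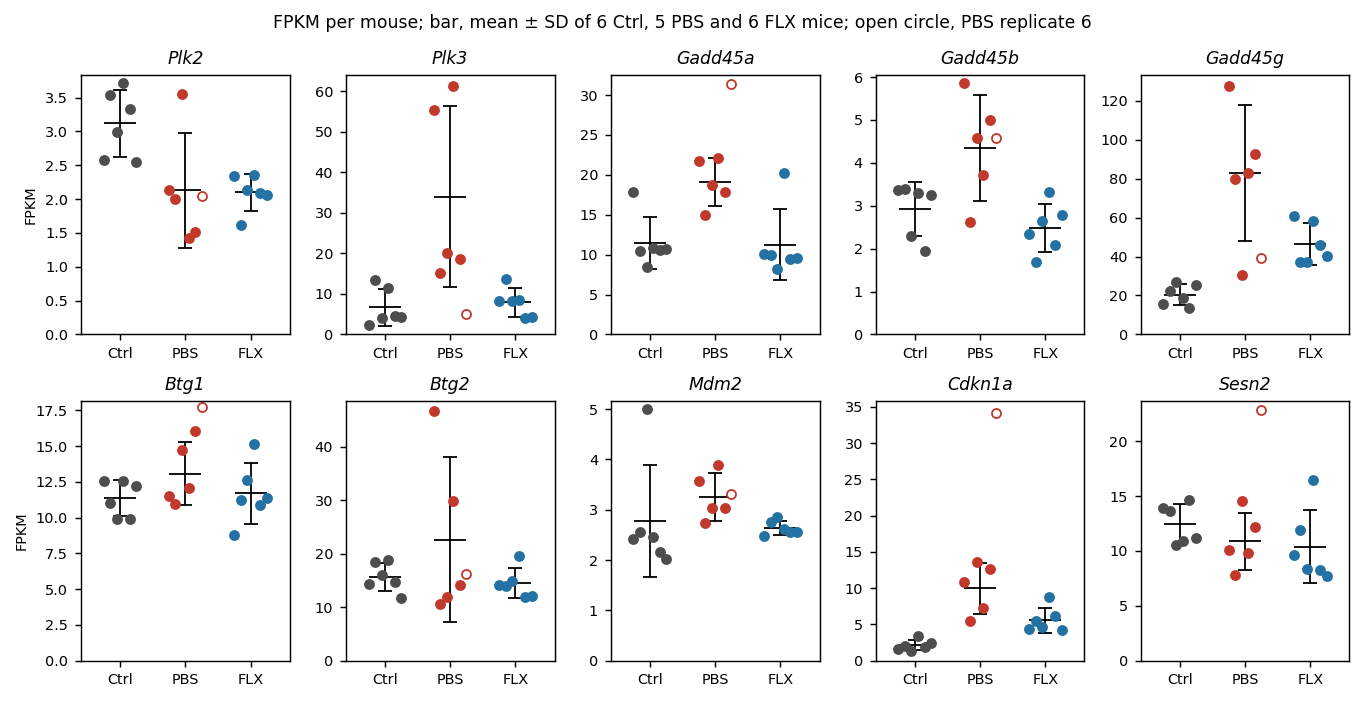
FPKM of the 10 genes in each mouse (circles), with the mean and SD (bars) of 6 Ctrl, 5 PBS and 6 FLX mice; the open circle is PBS replicate 6. Gadd45g and Cdkn1a are higher in every PBS and FLX mouse than in every Ctrl mouse, Plk2 is lower in every FLX than in every Ctrl mouse, and Plk3 and Btg2 reach 61.1 and 46.6 FPKM in single PBS mice.

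Btg2 (ENSMUSG00000020423, chr1:134075170-134079120, minus strand), an early response gene and p53 target, was high in 2 PBS mice only. PBS replicates 1 and 4 had 46.6 and 29.9 FPKM, whereas replicates 2, 3 and 5 had 10.6, 11.95 and 14.2 and replicate 6 had 16.2. The Ctrl mice were at 11.7 to 18.8 (median 15.4) and the FLX mice at 11.9 to 19.6 (median 14.1), so that the other 3 of the 5 PBS mice were level with or below them. The mean of the PBS group, 22.6 ± 15.5 FPKM (SD, n = 5), thus stood above that of Ctrl (15.7 ± 2.68) while its median of 14.2 stood below. Btg2 had log2 fold changes of 0.55 (SE 0.30) in PBS versus Ctrl, -0.76 (0.30) in FLX versus PBS and -0.21 (0.29, edgeR adjusted p = 0.737) in FLX versus Ctrl.

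Btg1 (ENSMUSG00000036478, chr10:96617006-96622809, plus strand), its close relative, varied little between groups. It was at 9.89 to 12.6 FPKM in Ctrl (median 11.6), at 11.5, 10.9, 14.7, 12.1 and 16.03 in PBS replicates 1 to 5 and at 8.79 to 15.2 in FLX (median 11.3). The highest value, 17.7, was in PBS replicate 6. The log2 fold changes were 0.20 (SE 0.12) in PBS versus Ctrl, -0.25 (0.12) in FLX versus PBS and -0.05 (0.11, edgeR adjusted p = 0.850) in FLX versus Ctrl. The last turned to 0.0223 without FLX replicate 1. PBS replicates 3 and 5, with 14.7 and 16.03 FPKM of Btg1, were not the mice with the most Btg2.

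Cdkn1a (ENSMUSG00000023067, chr17:29090976-29100727, plus strand) had the lowest level of the members in Ctrl and stood apart in both defeated groups. It was at 1.39 to 3.36 FPKM in Ctrl (median 2.00) and at 4.17 to 8.81 in FLX (median 5.04). PBS replicates 1 to 5 had 10.8, 5.53, 13.6, 7.27 and 12.7 FPKM, and replicate 6 had 34.2, the highest of the 18 mice. All defeated mice lay above all Ctrl mice, and PBS and FLX overlapped between 5.53 and 8.81. For Cdkn1a the log2 fold change was 2.21 (SE 0.25) in PBS versus Ctrl and -0.93 (0.24) in FLX versus PBS. With PBS replicate 6 it was 2.68 and -1.39.

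Against Ctrl, Cdkn1a in FLX rose by 1.29 on the log2 scale (SE 0.23, edgeR adjusted p = 0.00733), in 6 of 6 FLX mice, and the exact permutation test gave an unadjusted 0.00216. With all 6 PBS mice in the fit, where its SE was 0.33, the adjusted p was 0.0537, and with FLX replicates 1 and 2 only it was 0.213. Cdkn1a also overlaps an opposite-strand gene, AC167363.2, which was not analysed here.

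Mdm2 (ENSMUSG00000020184, chr10:117688875-117710758, minus strand), which like Cdkn1a is a p53 target, was at 3.57, 2.74, 3.03, 3.90 and 3.03 FPKM in PBS replicates 1 to 5. In FLX it was at 2.49 to 2.85 (median 2.59). Of the Ctrl mice, 5 were at 2.02 to 2.57 and replicate 3 was at 5.00, above every other mouse. All 5 PBS mice thus lay above 5 of the 6 Ctrl mice. The log2 fold change of 0.25 (SE 0.17) in PBS versus Ctrl became 0.48 without Ctrl replicate 3, and that of -0.14 (0.17, edgeR adjusted p = 0.675) in FLX versus Ctrl became 0.0851. Mdm2 differed by -0.40 (0.18) on the log2 scale between FLX and PBS.

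Sesn2 (ENSMUSG00000028893, chr4:132492032-132510501, minus strand) did not separate the groups. It was at 10.6 to 14.7 FPKM in Ctrl (median 12.4), at 10.1, 7.77, 14.5, 9.81 and 12.2 in PBS replicates 1 to 5 and at 7.76 to 16.4 in FLX (median 8.99). PBS replicate 6 had 22.9 FPKM, the highest value, and with it the log2 fold change in PBS versus Ctrl went from -0.21 (SE 0.18) to 0.0235. It was -0.16 (0.18) in FLX versus PBS and -0.36 (0.17, edgeR adjusted p = 0.239) in FLX versus Ctrl, where 4 of 6 FLX mice were below every Ctrl mouse. Gm12981, on the same strand inside Sesn2, was at 0.692 FPKM or less.

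Counted over the 10 members, 3 had an adjusted p under 0.05 in PBS versus Ctrl (Plk3, Gadd45g and Cdkn1a, all higher), beside 3.81% of all 20251 genes tested. In FLX versus PBS, 2 did (Plk3 and Gadd45b, both lower), beside 0.726% of all genes. Nothing is read from either count, since these comparisons chose the genes. In FLX versus Ctrl, 3 did (Gadd45g and Cdkn1a higher, Plk2 lower), beside 3.67% of all genes. That comparison shares its mice with the other 2, so its p values are not independent of the choice of genes either. With 6 PBS mice in the fit the counts were 4, with Gadd45a added, 2, with Gadd45a and Gadd45b, and 1, Gadd45g. Of all 19946 genes tested in that fit, 853, 111 and 354 were called in the same order.

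The groups did not overlap for 3 members in PBS versus Ctrl (3.52% of all genes), for 1 in FLX versus PBS (2.92%) and for 3 in FLX versus Ctrl (3.4%). They were Plk3, Gadd45g and Cdkn1a, then Plk3, and then Plk2, Gadd45g and Cdkn1a. PBS replicate 6 removed Plk3 from the first and the second. In FLX versus PBS, Plk3 missed the threshold without Ctrl replicate 5, without PBS replicate 1 or 4 or without FLX replicate 1, 3, 4, 5 or 6, with log2 fold changes of -2.23 to -1.86. Gadd45b missed it in 13 of the 17 fits without 1 mouse, at -0.94 to -0.77. Since FLX versus PBS chose these genes, calls and lost calls in it are a description only.

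**Figure D3:**
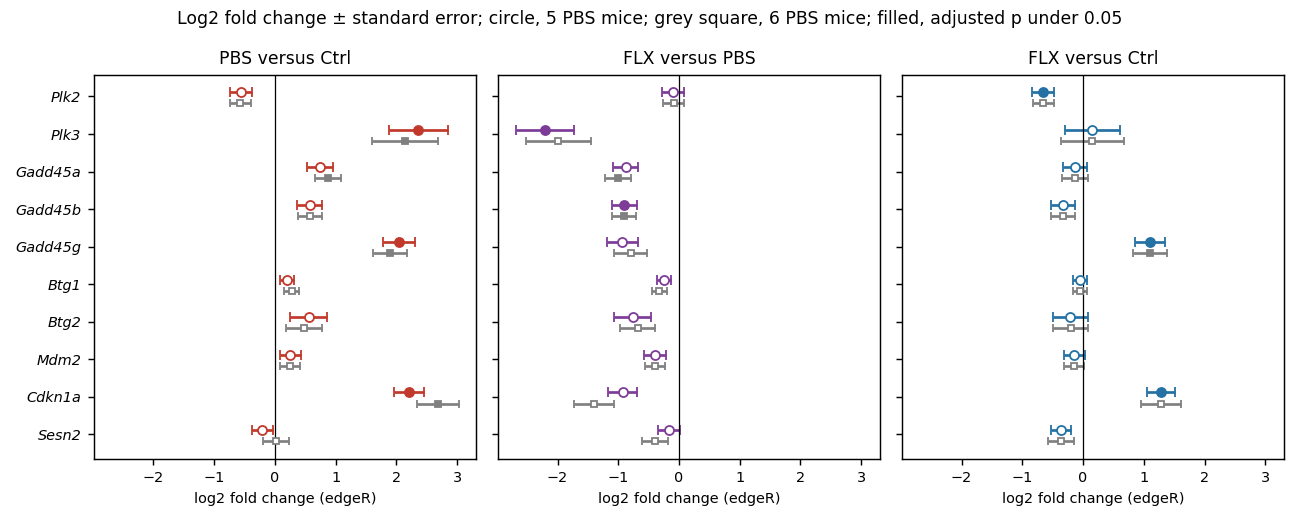
Log2 fold change with its standard error for the 10 genes in 3 comparisons, with 5 PBS mice (circles) and with 6 (grey squares). Filled symbols have an adjusted p under 0.05, a description only in PBS versus Ctrl and FLX versus PBS, since these chose the genes. Plk3 moves from 2.36 in PBS versus Ctrl to 0.15 in FLX versus Ctrl, while Gadd45g and Cdkn1a remain at 1.10 and 1.29 there.

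FLX versus PBS and PBS versus Ctrl share the PBS mice, so the values are set side by side and not correlated. Relative to Ctrl means, Gadd45g was at 4.05 times in PBS and 2.27 times in FLX, Cdkn1a at 4.66 and 2.61 times, and Plk3 at 5.06 and 1.18 times. Gadd45a was at 1.67 and 0.979 times, and Gadd45b at 1.49 and 0.848 times. Plk2 was at 0.683 times in PBS and 0.673 times in FLX.

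Across mice, each member was set beside the genes most like it by Pearson's r of log2(FPKM + 0.1) over 17 mice, as a description without a test. All points come from the same libraries, and the group differences enter r. Btg2 was most like Junb, an AP-1 subunit of the early response (r = 0.91, and 0.96 with group means removed), then Cxcl1 and Csrnp1. PBS replicate 6, which is not among the 17 mice, had 31.0 FPKM of Junb and 16.2 of Btg2. Among the 17, Junb was at 8.99, 10.6 and 15.0 FPKM in PBS replicates 2, 3 and 5. It was at 48.5 and 40.1 in PBS replicates 1 and 4, the same 2 mice in which Btg2 was high. Plk3 was most like Errfi1, a feedback inhibitor of the EGF receptor (0.92, and 0.82 with group means removed), then Cebpd and Hbegf, an EGF receptor ligand. Errfi1 was at 254 and 235 FPKM in those 2 mice and at 79.9 to 156 in the other 16.

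Gadd45g was like Trib1 (r = 0.89) and Dnajb4, and Cdkn1a most like Adamtsl2 (0.92), Bcl2l1 and Sgk1 (0.91), a kinase gene known to be induced by glucocorticoids. With group means removed, r of Cdkn1a was 0.49 with Adamtsl2, 0.75 with Bcl2l1 and 0.64 with Sgk1. Mean Sgk1 was 13.1 FPKM in Ctrl, 39.8 in PBS and 28.4 in FLX. Mdm2 was most like the nuclear non-coding RNA Malat1 (0.89), then Kcnj16 and Pacsin2, and Malat1 was at 67.7 FPKM in Ctrl replicate 3 against 18.1 to 31.1 in the other Ctrl mice. Plk2 was most like Efna1 (0.88), Irf5 and Hbp1, Gadd45a like Arl15 (0.82), Gsta2 and Tent5b, Gadd45b like Hacl1 (0.81), Sphk1 and Slc38a3, Btg1 like Ucp2 (0.85), Tmprss2 and Capg, and Sesn2 like 2610035D17Rik (0.82), Kbtbd3 and Pfkfb4.

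**Figure D4:**
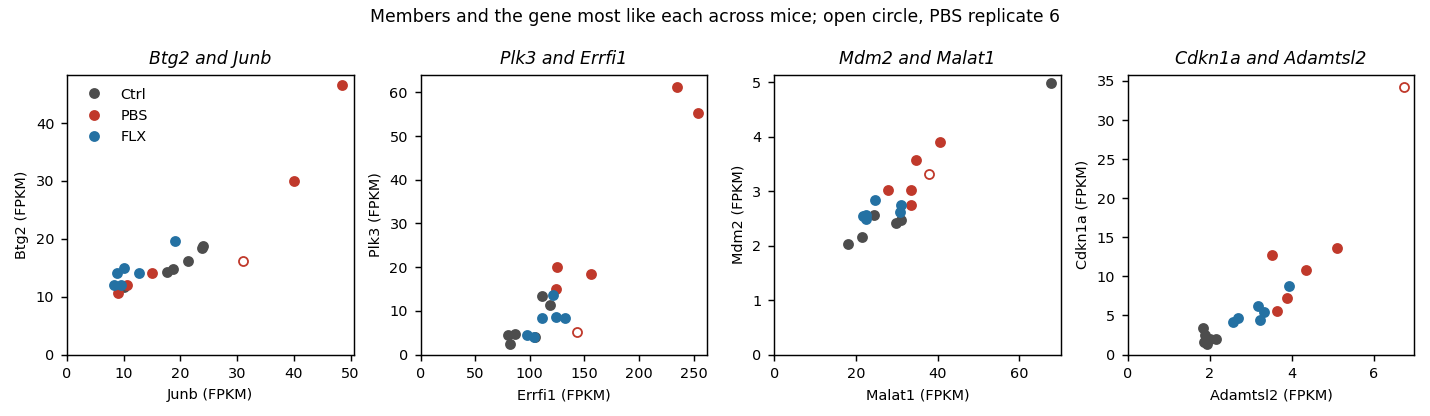
FPKM of Btg2, Plk3, Mdm2 and Cdkn1a in each mouse against the gene most like it, with Ctrl in grey, PBS in red and FLX in blue; the open circle is PBS replicate 6. The 2 PBS mice at 46.6 and 29.9 FPKM of Btg2 have 48.5 and 40.1 FPKM of Junb, and 1 Ctrl mouse stands alone at 5.00 FPKM of Mdm2 and 67.7 of Malat1.

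Summed markers also varied between mice and groups. The sum of 8 immediate early genes was 50.3 to 239 FPKM in the 5 PBS mice, 70.2 to 121 in Ctrl and 71.9 to 85.1 in FLX. The neutrophil sum was 6.84 to 25.5 in the 5 PBS mice, 1.05 to 3.06 in Ctrl and 0.166 to 4.97 in FLX, while the defining neutrophil gene Ly6g was at 0 in 14 of the 18 mice. The injured tubule sum was 1.66 to 6.19, 1.02 to 2.71 and 1.54 to 11.3. The sum of brown fat genes, from tissue around the kidney, was 3.17 to 413 FPKM in PBS, 0.116 to 32.3 in Ctrl and 0.913 to 189 in FLX, and that of adrenal cortex genes did not pass 3.49 in any mouse. The sum of 4 clock output genes was 6.82 to 12.9 in FLX against 25.2 to 51.9 in Ctrl and 24.3 to 55.7 in PBS. The part of these in the members' values was not tested.

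Related genes were taken from 7 lists of the same families and pathways, 81 genes of which 79 passed the filter. In PBS versus Ctrl, edgeR called 5 of the 79 (6.33%, beside 3.81% of all genes), all higher. The median log2 fold change was 0.03 against -0.01 over all genes. An unadjusted p under 0.05 was found for 22 of the 79, beside 3634 of all 20251 genes. DESeq2 called 9 there, beside 1424 of all 20251 genes, 8 higher and 1, Plk5, lower (log2 fold change -0.93). In FLX versus Ctrl, edgeR called 3 (3.8%, beside 3.67% of all genes, a share near the background), all higher, with a median of -0.02 against -0.01. There 15 of the 79 had an unadjusted p under 0.05, beside 4135 of all 20251 genes. DESeq2 called 6 there, beside 1645 of all 20251 genes. Of the 6, 4 were higher and 2 lower, Castor1 (-0.52) and the CDK inhibitor gene Cdkn2d (-0.45, edgeR adjusted p = 0.0521). Plk5, Castor1 and Cdkn2d are named here after their values were seen. In FLX versus PBS, 0 passed edgeR's quasi-likelihood test, beside 0.726% of all genes, with a median of -0.08 against -0.00267 over all genes. There 13 of the 79 had an unadjusted p under 0.05, beside 2256 of all 20251 genes, and DESeq2 called 2, beside 498.

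**Figure D5:**
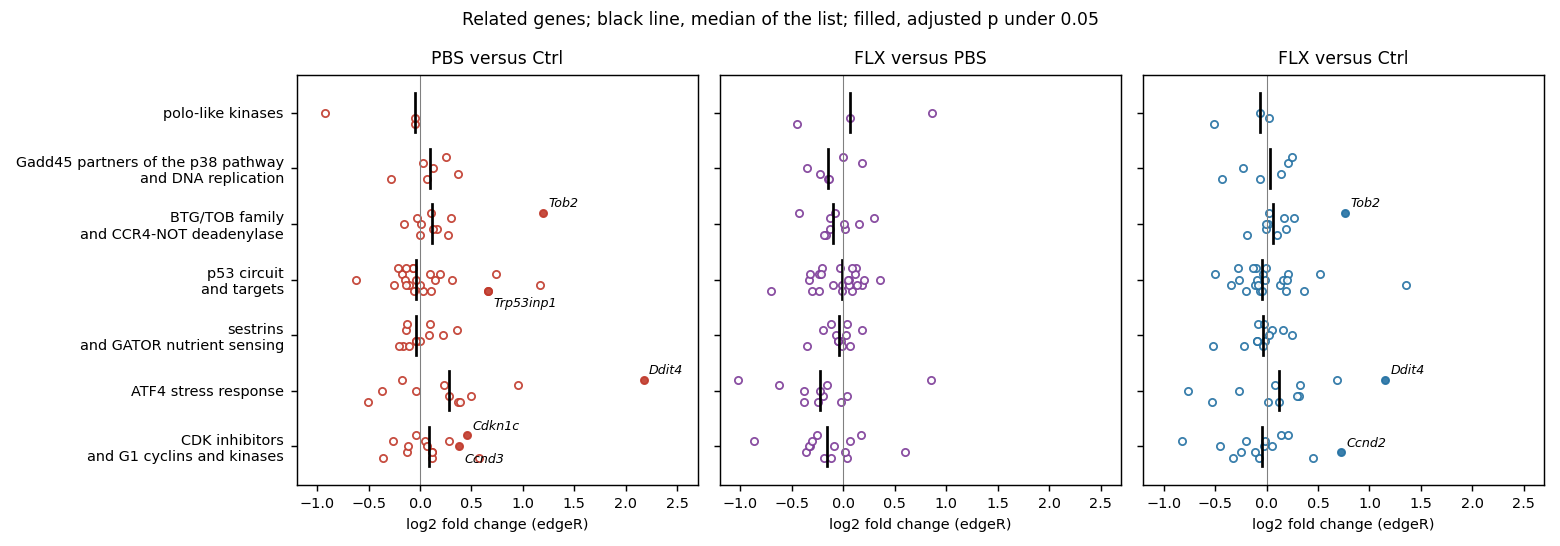
Log2 fold change of 79 related genes (circles) by list in 3 comparisons, with the median of each list (black line); filled circles have an adjusted p under 0.05 and are named. Ddit4 and Tob2 are filled in both comparisons with Ctrl, and no circle is filled in FLX versus PBS.

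Of the 23 genes of the p53 list, edgeR called 1 in PBS versus Ctrl, Trp53inp1, a p53 target that promotes growth arrest, which rose (log2 fold change 0.66, standard error 0.17, edgeR adjusted p = 0.0375), and the median of the list was -0.04. In that comparison 7 of the 23 had an unadjusted p under 0.05, beside 3634 of all 20251 genes. Of these 7, 5 were higher (Trp53inp1, Pmaip1, Ccng1, Fas and Phlda3) and Trp53 and Bbc3 lower. DESeq2 called 2, Trp53inp1 and the cell death gene Pmaip1 (log2 fold change 0.74), beside 1424 of all genes. Trp53inp1 was at 4.41, 4.003, 8.13, 3.62 and 5.96 FPKM in PBS replicates 1 to 5 and 2.73 to 4.82 in Ctrl, so that the groups overlapped. Its adjusted p was between 0.0569 and 0.0901 in the fits that lacked Ctrl replicate 1, 2, 4, 5 or 6, or PBS replicate 1, 3 or 5. Between FLX and PBS the difference of Trp53inp1 on the log2 scale was -0.71 (adjusted p = 0.0697), which passed with 6 PBS mice (-0.86, adjusted p = 0.0426) and without Ctrl replicate 3 (adjusted p = 0.0341). In FLX versus PBS and FLX versus Ctrl, 0 of the 23 were called by edgeR's quasi-likelihood test, with 3 at an unadjusted p under 0.05 in each, and DESeq2 called 1, Trp53inp1, and 0. Over all 20251 genes, 2256 and 4135 had such an unadjusted p, and DESeq2 called 498 and 1645. Trp53 itself was at 5.46 ± 0.758 FPKM in Ctrl (SD, n = 6), 4.69 ± 0.332 in PBS (n = 5) and 5.31 ± 0.614 in FLX (n = 6).

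In the list of 11 ATF4 stress genes, to which Sesn2 is related as a target, edgeR called Ddit4 alone. Others rose short of the threshold in PBS versus Ctrl, among them Ddit3 (log2 fold change 0.95, edgeR adjusted p = 0.126) and Atf4 (0.28, adjusted p = 0.227). Trib3 (-0.51, adjusted p = 0.407), Chac1 (-0.37, adjusted p = 0.718), Slc7a11 (-0.17) and Phgdh (-0.04) were lower there, also short of the threshold. Ddit4 codes for REDD1, an inhibitor of mTORC1, and is also induced by glucocorticoids. It was at 44.7, 71.7, 25.8, 30.8 and 65.3 FPKM in PBS replicates 1 to 5, against 7.17 to 15.1 in Ctrl and 14.2 to 54.5 in FLX. All 5 PBS mice lay above all Ctrl mice, with a log2 fold change of 2.17 (SE 0.32, edgeR adjusted p = 0.000821). In FLX versus Ctrl it was 1.15 (0.30, adjusted p = 0.0420), which rested on the set of mice, with 0.0537 with 6 PBS mice and 0.0928 (log2 fold change 0.82) without FLX replicate 4, the mouse at 54.5. Its adjusted p was also over 0.05 (0.0512 to 0.0938) without Ctrl replicate 1, 2, 5 or 6, FLX replicate 1, 2 or 5, or PBS replicate 1. Ddit4 differed by -1.02 on that scale between FLX and PBS (adjusted p = 0.159), and -1.36 in the fit that lacked FLX replicate 4 (adjusted p = 0.0263). The median of this list was 0.28 in PBS versus Ctrl, -0.23 in FLX versus PBS and 0.12 in FLX versus Ctrl.

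In the list of BTG and TOB genes and CCR4-NOT subunits, edgeR called 1 of 10 tested genes, higher in both comparisons with Ctrl. Tob2, an antiproliferative relative of Btg1 and Btg2, was at 3.47 to 6.33 FPKM in Ctrl, at 9.53, 9.95, 9.47, 10.02 and 15.4 in PBS replicates 1 to 5 and at 7.37 to 10.2 in FLX. Both defeated groups lay above every Ctrl mouse, except for PBS replicate 6 with 5.55 FPKM. Its log2 fold change was 1.20 (edgeR adjusted p = 0.000279) in PBS versus Ctrl and 0.76 (adjusted p = 0.00959) in FLX versus Ctrl. The list medians were 0.12 and 0.07 there and -0.10 in FLX versus PBS.

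Of 14 tested CDK inhibitors, G1 cyclins and kinases, edgeR called Cdkn1c and Ccnd3 in PBS versus Ctrl, both higher. Cdkn1c, the CDK inhibitor p57 of podocytes, was at 9.12 to 10.6 FPKM in the 5 PBS mice and 6.06 to 8.26 in Ctrl, a log2 fold change of 0.46 (edgeR adjusted p = 0.0200, and 0.0501 without PBS replicate 1). The podocyte marker sum was 46.8 to 56.3 FPKM in PBS and 35.9 to 48.4 in Ctrl, and its part in this value was not tested. The D-type cyclin gene Ccnd3 was at 10.4 to 11.2 FPKM in PBS and 7.36 to 9.75 in Ctrl (log2 fold change 0.38, adjusted p = 0.0136). Ccnd2, another D-type cyclin, rose in FLX versus Ctrl (0.72, adjusted p = 0.0441), with 1.09 to 2.42 FPKM in FLX and overlapping values of 0.713 to 1.19 in Ctrl. That call was lost with 6 PBS mice (0.0617) and in 10 of the 17 fits without 1 mouse. The medians of this list were 0.09, -0.16 and -0.05 in PBS versus Ctrl, FLX versus PBS and FLX versus Ctrl.

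In the remaining 3 lists, 0 genes passed edgeR's quasi-likelihood test in any comparison, with 0 to 3 at an unadjusted p under 0.05 in each. DESeq2 called Plk5, Map2k3 and Mapk14 in PBS versus Ctrl and Mapk14 and Castor1 in FLX versus Ctrl. The counts over all genes given above stand beside these too. Of the other polo-like kinases, Plk1 and Plk4, which act in mitosis and centriole copying, were below 1 FPKM in every group, and Plk5 was at 0.373 ± 0.106 FPKM in Ctrl (SD, n = 6), 0.196 ± 0.0316 in PBS (n = 5) and 0.380 ± 0.149 in FLX (n = 6). Plk5 had a difference of -0.93 on the log2 scale between PBS and Ctrl (adjusted p = 0.0722). Among the Gadd45 partners, Mapk14, which codes for p38 alpha, was at 0.25 (adjusted p = 0.0603) in PBS versus Ctrl and 0.24 (adjusted p = 0.0539) in FLX versus Ctrl. Map2k3, a p38 kinase, was at 0.37 (adjusted p = 0.0799) in PBS versus Ctrl and was called with 6 PBS mice (0.40, adjusted p = 0.0459). Others of that list went lower. Gadd45gip1 was at -0.44 (adjusted p = 0.229) in FLX versus Ctrl and -0.28 (adjusted p = 0.530) in PBS versus Ctrl. Map2k6 was at -0.35 (adjusted p = 0.262) in FLX versus PBS and 0.12 (adjusted p = 0.681) in PBS versus Ctrl. Among sestrins and the GATOR complexes through which they act, Sesn1 had a log2 difference of 0.36 in PBS versus Ctrl (adjusted p = 0.103) and Castor1, an arginine sensor, -0.52 in FLX versus Ctrl (adjusted p = 0.0844).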

How the data were processed

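Poly(A) RNA of 18 mouse kidneys was sequenced in read pairs on strand-marking libraries. The authors deposited, for 32675 genes in each mouse, FPKM values beside estimated counts. Per the study's methods reads were cleaned with fastp, aligned to GRCm38 with HISAT-3N and assembled with StringTie, whereas the submitters' processing notes name cutadapt 1.9, HISAT2 2.0.4 and StringTie 1.3.4d. The counting tool and its strand setting are not given in the sources used here, so reads of opposite-strand genes could be mixed. Deposited counts were taken as estimated counts, because the median number of genes with 4 counts was 720 and that with 5 was 268, and were used as whole numbers.

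Groups were compared in 1 model with edgeR 4.0.16 (quasi-likelihood, TMM, filterByExpr, R 4.3.3) over 6 Ctrl, 5 PBS and 6 FLX mice. P values were two-sided and adjusted by Benjamini-Hochberg over 20251 genes, with calls at an adjusted p under 0.05. Nothing in the labels ties mice to cages or batches. Single members in FLX versus Ctrl were also compared by an exact permutation test on log2(FPKM + 0.1) with SciPy 1.17.1, without adjustment of its p. Alternatives were all 6 PBS mice, DESeq2 1.42.0, RLE factors, no filter, limma 3.58.1 on log2(FPKM + 0.1) and log2(FPKM + 1), a replicate block, FLX mice of 1 depth class only, and leaving out each mouse. The fit was tested on simulated data.

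The members, the related lists and the markers were chosen with earlier results of these data known. The text names all members, the related genes with an adjusted p under 0.05 in any comparison or, in lists without one, up to 4 with the largest fold changes, and for each member the 3 likest genes at a mean of 1 FPKM or more, except for 1 gene that is not reported here. Further related genes are named beside these. Positions are those of the deposited table, and promoters are from RefSeq.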

Additional observations from a re-analysis of the deposited data

Results flagged for a closer look

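Of 30 groups of mice (10 genes, 3 groups each), 4 held a mouse that stood apart by Dixon's test, which chance gives for about 1 in 20 groups. Mdm2 was at 5.00 FPKM in Ctrl replicate 3 against 2.02 to 2.57 in the other 5 Ctrl mice. Gadd45a was at 17.8 FPKM in Ctrl replicate 1 against 8.44 to 10.8 in the others. It was at 20.2 FPKM in FLX replicate 4 against 8.17 to 10.1 in the others, and the same mouse had the highest FLX value of Cdkn1a (8.81), Gadd45b (3.31), Sesn2 (16.4), Btg1 (15.2) and Btg2 (19.6). Its injured tubule sum was 11.3 FPKM against 1.54 to 2.43 in the other FLX mice, and its macrophage sum 39.7 against 14.5 to 30.6, and their part in these values was not tested. Plk2 was at 1.62 FPKM in FLX replicate 2 against 2.05 to 2.36 in the others. The cause was not tested for any of the 4.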

How the results depend on the processing

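Limits were the choice of 5 or 6 PBS mice, the lower depth of FLX replicates 3 to 6, counts that are estimates, and calls near the threshold. Of 780 values of single members under the alternatives, 685 kept direction and side of the threshold and 60 lost the call. Another 22 gained a call and 13 turned in sign, and the cause was not tested. Members not called in the main fit of a comparison are among the 780 and had no call to lose. In PBS versus Ctrl, Plk3, Gadd45g and Cdkn1a kept their call in 26 of 26 alternatives. In FLX versus PBS, Plk3 kept its call in 13 of 26 and Gadd45b in 6 of 26. Calls in these 2 comparisons are a description only. In FLX versus Ctrl, Plk2 kept its call in 6 of 26, Gadd45g in 21 of 26 and Cdkn1a in 24 of 26.

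With DESeq2 the counts of called members were 5 in PBS versus Ctrl and 5 in FLX versus PBS, and those of related genes 9, 2 and, in FLX versus Ctrl, 6. Over all 20251 genes DESeq2 called 1424 in PBS versus Ctrl, 498 in FLX versus PBS and 1645 in FLX versus Ctrl, against 772, 147 and 744 in the main fit. With all 6 PBS mice 1 member and 1 related gene were called in FLX versus Ctrl, beside 354 of all 19946 genes, and 1 related gene in FLX versus PBS, beside 111. Sesn2 in PBS versus Ctrl turned to 0.0235 with these mice. In FLX versus PBS the called members were 1 with RLE factors, 0 with no filter and 1 with limma at either pseudocount. Over all genes the calls there were 142 with RLE factors, 88 of 31985 with no filter, and 255 and 242 with limma at the smaller and larger pseudocount. In FLX versus Ctrl the related genes called were 1 with no filter, beside 378 of all 31985 genes, and 5 with limma on log2(FPKM + 0.1), beside 1214 of 20251. With FLX replicates 1 and 2 only, 0 members passed in both FLX comparisons and 0 related genes in FLX versus Ctrl. Over all 21863 genes, 0 passed in FLX versus PBS and 4 in FLX versus Ctrl. With FLX replicates 3 to 6 only, 0 members passed in FLX versus PBS, beside 38 of all 20569 genes. In FLX versus Ctrl 1 member and 0 related genes passed, beside 179 of all genes, and there Plk3 was -0.20 and Btg1 0.0285. With limma at the smaller and larger pseudocount, Plk2 in FLX versus PBS was 0.0450 and 0.0200, Btg1 in FLX versus Ctrl 0.0301 and 0.0287, and Trp53inp1 there 0.0483 and 0.0370. In limma the median of all genes itself stood at 0.0756 and 0.0384 in FLX versus PBS and at 0.0630 and 0.0286 in FLX versus Ctrl.

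The replicate block gave 3 related genes in PBS versus Ctrl, 1 member in FLX versus PBS, and 1 member and 1 related gene in FLX versus Ctrl. Over all 20251 genes it gave 419, 67 and 258 calls in these comparisons. The numbers did not pair the mice. Deviations of same-numbered mice correlated at -0.22 to 0.22, and 1 of 6 mice correlated best with its own number in each comparison.

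Without 1 mouse at a time, members called ranged from 0 to 3 in FLX versus PBS and from 1 to 3 in FLX versus Ctrl, and related genes called from 3 to 9 in PBS versus Ctrl, 0 to 2 in FLX versus PBS and 1 to 12 in FLX versus Ctrl. Over all genes tested, the fits without 1 mouse gave 388 to 1662 calls in PBS versus Ctrl. They gave 47 to 250 in FLX versus PBS and 271 to 3099 in FLX versus Ctrl. The highest related counts came without Ctrl replicate 3. Calls over all 20093 genes rose in that fit as well, to 1662 in PBS versus Ctrl, 250 in FLX versus PBS and 3099 in FLX versus Ctrl. In FLX versus PBS 0 members passed without PBS replicate 1 or 4 or FLX replicate 1, 3, 5 or 6. Calls over all genes fell there too, from 147 in the main fit to 68 and 47 without PBS replicates 1 and 4. Without FLX replicates 1, 3, 5 and 6 they were 70, 81, 85 and 66. Log2 fold changes that turned in sign in the fits without 1 mouse ranged from -0.21 to 0.14 for Plk2 in FLX versus PBS, and in FLX versus Ctrl from -0.0873 to 0.491 for Plk3, -0.347 to 0.0384 for Gadd45a, -0.110 to 0.0223 for Btg1, -0.219 to 0.0851 for Mdm2 and -0.0948 to 0.0768 for Trp53inp1.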
